A study of Macaca fascicularis with 15 samples.

Results

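Heat shock proteins and chaperones were followed across the eye and retina of the cynomolgus monkey, Macaca fascicularis. The group was defined by name alone, with no measured value used: every gene of the deposited tables named as an HSPA, HSPB, HSPD, HSPE, HSPH or HSP90 protein, a J-domain protein of class A, B or C (DNAJA, DNAJB, DNAJC), a subunit of the chaperonin TRiC (TCP1 and the CCT genes), a BAG cochaperone or a prefoldin subunit. This gave 72 genes of the 12995 in the tables. They comprised 11 HSP70 and HSP110 proteins, 3 HSP90 proteins, HSPD1 and HSPE1, 6 genes with a small heat shock protein name, HSPBAP1, 32 J-domain proteins, 7 TRiC subunits, 5 prefoldin subunits and 5 BAG proteins. DNAJB1, HSPA2, CCT3 and BAG6 were not analysed here.

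RNA sequencing tables were analysed for 11 libraries from wild type animals: 2 of whole eye, 2 of whole retina, 4 of central retina and 3 of peripheral retina. Each sample came from a single eye, and no treatment is named in the labels, which give neither the age nor the sex of the animals. The study's stated purpose was to examine tissue from different regions of the eye and retina. For the regional samples, separate animals are not stated in the labels. The p-values then describe the spread among these libraries alone, part of which may be technical. Another 4 records, of whole eye and whole retina, were not analysed here.

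Chaperones bind proteins that are unfolded or newly made and let them fold without clumping. HSP70 proteins work in cycles of nucleotide hydrolysis that J-domain proteins start and that BAG and HSP110 proteins reset, HSP90 finishes the folding of kinases and receptors, small heat shock proteins hold clients without using ATP, and TRiC with prefoldin folds actin and tubulin. Photoreceptors make large amounts of membrane protein for the outer segments, and neurons of the retina use specialised J-domain proteins at synapses and on clathrin-coated vesicles.

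The deposited value is a normalized signal without a stated unit, and how it was scaled is not stated, so levels are compared between libraries for the same gene, and the order of genes by level is only the order of the deposited values. Absolute depth is unknown. Between 171 and 501 genes were listed at 0 in a library, and none of the 72 chaperone genes was at 0 in any library. Relative depth was estimated from the steps between low values for 7 libraries besides whole eye replicate 2. The estimates lay between 58.1% and 95.3% of that library. They rest on 22 to 30 of 128 low genes per library and assume a simple scaling by depth. Replicate 1 of whole eye, central retina and peripheral retina gave no single estimate. The whole retina libraries resembled the whole eye (correlation across genes 0.914 to 0.955) more than the central (0.803 to 0.834) or peripheral retina (0.838 to 0.875). Genes are not independent replicates, and these correlations are a description. Rod photoreceptor markers were high in every library, with summed values from 10780 to 25952.

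Some gene names share their start with a longer name, and for several of these the values appeared to pass from one name to the other between libraries. This applied to 22 of the 72 genes: 17 J-domain proteins, HSPA4, HSPA4L, HSPB1, HSPB11 and TCP1. Each is marked as a shared name where its main result is given. HSPA1B has a near-identical paralog, HSPA1A, so its value is uncertain.

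The constitutive HSP70 and the cytosolic HSP90 proteins had the highest deposited values of the group. HSPA8, the constitutive HSP70 that also strips clathrin from vesicles, ranked at 16 among the 12995 genes by its mean over the libraries, HSP90AA1 at 26 and HSP90AB1 at 111. These 3 genes supplied between 44.4% (peripheral retina replicate 3) and 51.6% (peripheral retina replicate 2) of the summed value of the group. The group as a whole made up between 1.14% and 1.64% of the summed value of all genes in a library. The median chaperone gene had a mean of 24.9, against 8.78 for all genes in the tables. HSPA1B, a stress-inducible HSP70, lay between 3.05 and 8.50 in all 11 libraries.

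HSPA8 read 1161 and 1418 in the whole eyes, 1038 and 1266 in the whole retinas, 1094, 1246, 927 and 1161 in central retina, and 1034, 1001 and 884 in peripheral retina. The peripheral libraries lay just below both whole-tissue groups, and the central libraries overlapped with all 3 other groups. Of the 72 genes, 36 had group means within 1.5-fold of each other, 15 spanned more than 2-fold and 7 more than 4-fold. Those 7 were HSPB2, HSPB8 and HSPE1, and the shared names HSPB1, DNAJC2, DNAJC22 and TCP1.

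Central and peripheral retina differed in few chaperone genes. HSPA12A, a distant member of the HSP70 family, was 2.24-fold higher in central retina, and HSPA12B, BAG3 and DNAJB5 were higher by less. DNAJC1, DNAJC9, HSPA4 and DNAJC22 were lower in central retina, and all but DNAJC9 carry shared names. Thus 4 of 72 genes were higher and 4 lower (11.1% in either direction), where the same limma test called 12.5% of all 11933 tested genes higher and 8.76% lower (21.3% in either direction). The median difference of the group was 0.06 on the log2 scale, against -0.01 over all tested genes, and 65 of the 72 genes differed by less than 0.5 in either direction.

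HSPA12A read 46.83, 49.87, 47.37 and 52.99 in the central libraries. In the peripheral libraries it read 25.39, 18.57 and 20.68, close to the whole eyes (23.38 and 23.97) and the whole retinas (22.85 and 19.10). The central libraries were all above every other library of the study, with no overlap. The means were 49.3 ± 2.81 (SD, n = 4) and 21.5 ± 3.49 (SD, n = 3), a log2 difference of 1.17 with a standard error of 0.12 and a limma adjusted p of 0.000116. Over the alternative settings and with any single library left out, the adjusted p of HSPA12A stayed at or below 0.00663.

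HSPA12B, the paralog of HSPA12A known from endothelial cells, was low throughout. Its central values were 3.21, 2.72, 4.03 and 3.97 and its peripheral values 1.78, 1.54 and 2.14, so that the groups did not overlap. The log2 difference was 0.66 (SE 0.16, limma adjusted p = 0.0159). Without peripheral replicate 1 or 2 the limma adjusted p of HSPA12B was 0.0503 or 0.0763.

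**Figure D1:**
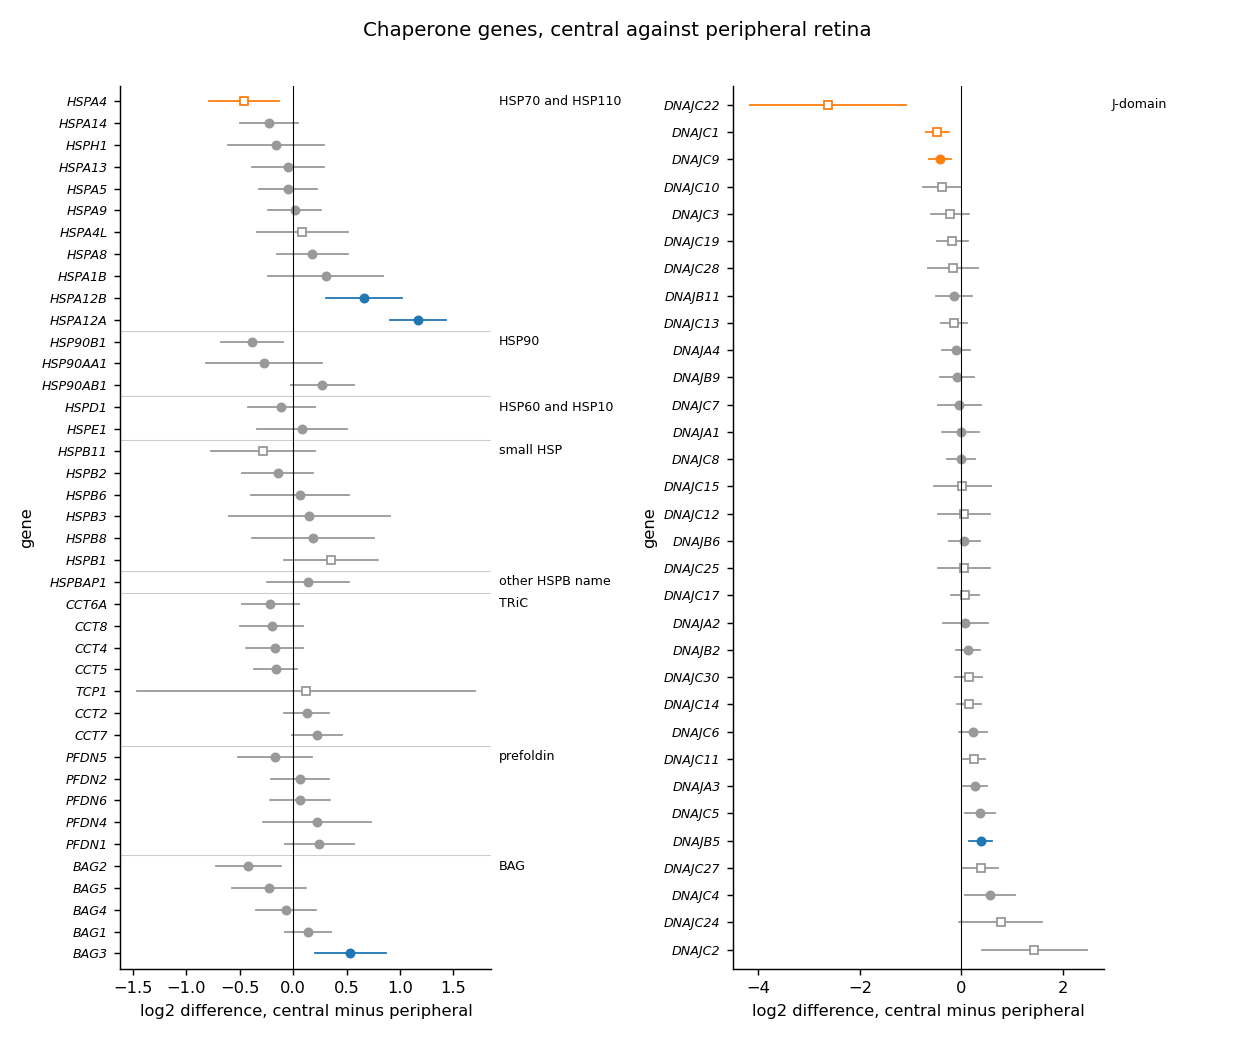
Difference between central and peripheral retina for all 72 chaperone genes, grouped by class. The horizontal axis is the fitted log2 difference, central minus peripheral, on the log2(value + 1) scale, each row is a gene with its 95% interval, open squares mark shared names, and blue and orange mark genes called higher and lower. Of the 72 points, 65 lie within 0.5 of 0, and HSPA12A lies at 1.17.

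BAG3, which resets HSP70 and, with HSPB8, delivers damaged proteins to autophagy, read 10.04, 9.12, 10.20 and 13.28 in central retina. Its peripheral values of 7.02, 5.71 and 8.44 lay below all of these. The log2 difference was 0.54 (SE 0.15, limma adjusted p = 0.0278), and the call was lost without central replicate 3 or 4 (adjusted p 0.0558 and 0.0706) or peripheral replicate 1 or 2 (adjusted p 0.0746 and 0.135).

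DNAJB5, a J-domain partner of HSP70, varied little within central retina, where it read 15.84, 15.68, 16.06 and 16.19. It read 12.16, 11.19 and 12.83 in peripheral retina, again with no overlap. The log2 difference was 0.38 (SE 0.10, limma adjusted p = 0.0262), but the adjusted p lay between 0.0529 and 0.122 without central replicate 1, 3 or 4 or peripheral replicate 1 or 2.

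DNAJC9, a J-domain protein that also chaperones histones, was lower in central retina. It read 21.00, 18.76, 19.28 and 18.90 there and 24.28, 25.98 and 29.33 in peripheral retina. The whole eye and whole retina libraries (24.24 to 27.34) lay with the peripheral ones, above every central library. The log2 difference was -0.42 (SE 0.10, limma adjusted p = 0.0114), and the adjusted p of DNAJC9 was 0.0544 without peripheral replicate 3.

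DNAJC1, a J-domain protein of the endoplasmic reticulum membrane, is a shared name. It read 6.15, 6.26, 6.79 and 5.97 in central retina and 9.25, 8.31 and 9.87 in peripheral retina, without overlap. The difference was -0.47 on the log2 scale (SE 0.10, limma adjusted p = 0.00855), and the call held under every alternative tried and with each library left out. The summed value of the 9 genes whose names start with DNAJC1 overlapped between the regions, at 101.9 to 124.0 for central and 110.6 to 117.9 for peripheral retina. DNAJC1 read at most 9.87 in these regions, so the sum cannot show whether its own difference came from exchanged names.

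HSPA4, an HSP110 protein that resets HSP70, read 56.96, 60.09, 49.31 and 46.56 in central retina and 74.42, 80.62 and 65.38 in peripheral retina. Its limma adjusted p of 0.0497 (log2 difference -0.46, SE 0.15) was just inside the threshold of 0.05. It was lost when any of 6 libraries was left out, all but central replicate 2, with an adjusted p of up to 0.185. HSPA4 shares its start with HSPA4L, and the sum of both names overlapped between the regions.

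Retinal ganglion cells are dense in the central retina. Their 8 markers were all higher there, with summed values of 2137 to 4087 there and 417 to 734 in peripheral retina, while 7 of 8 Müller glia markers were lower (1635 to 2044 against 2967 to 3544). Of the rod markers 4 of 8 were also lower in central retina, as were 4 of 6 pigment epithelium markers. The part of cell composition in the chaperone calls was not tested. In bulk tissue, fewer cells of a type and less RNA per cell cannot be told apart.

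The count of calls depended on single libraries. The number of genes higher in central retina was 2 without central replicate 3 or 4 and 1 without peripheral replicate 1 or 2, and the number lower was 2 without any one of the same 4 libraries, central replicate 1 or peripheral replicate 3. Without adjustment, 10 genes had p under 0.05 in the higher and 6 in the lower direction, where 18.9% and 16.8% of all tested genes did. The libraries of the regions did not overlap for 10 genes higher in central retina and 6 lower, where 19.0% and 15.6% of all tested genes showed this.

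**Figure D2:**
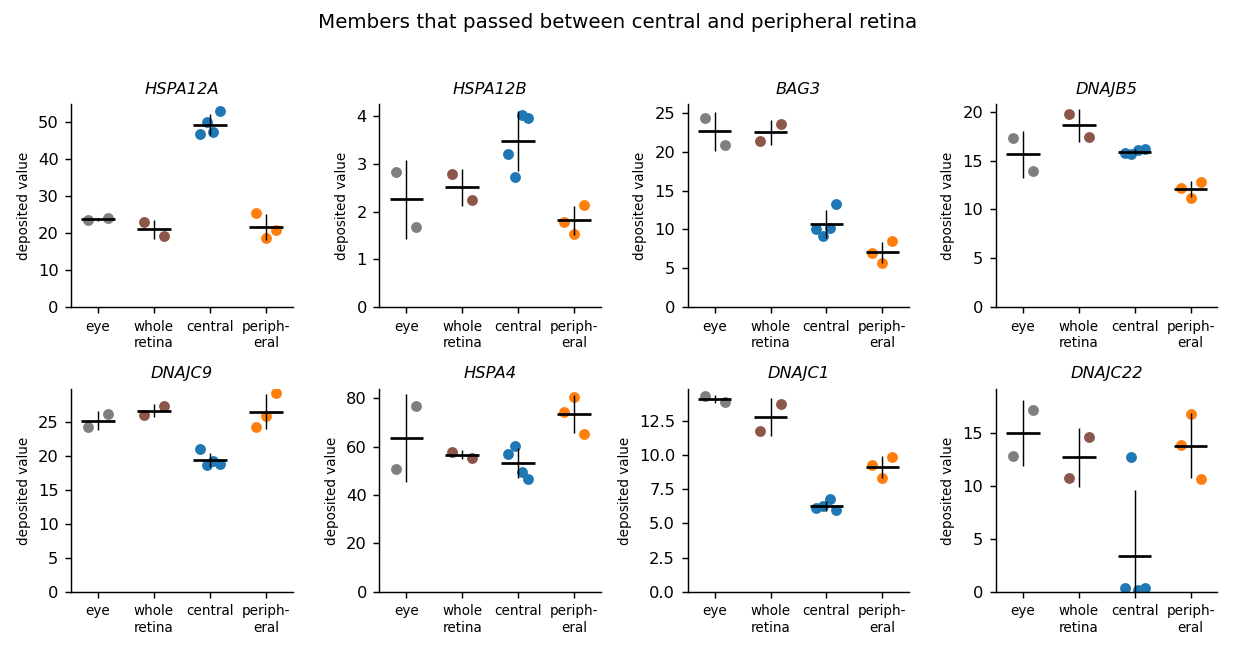
Deposited values, one point per library, of the chaperone genes that passed the test between central and peripheral retina, by tissue group. The horizontal bars are group means and the vertical bars the SD; the 4 central HSPA12A values of 46.83 to 52.99 lie above all other libraries, while the central DNAJC9 values lie below all others.

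The general HSP70 and HSP90 proteins of the cytosol did not pass the test between the regions. HSPA8 differed by 0.18 on the log2 scale, with a 95% interval from -0.15 to 0.51. HSP90AA1, the inducible cytosolic HSP90, differed by -0.27 (interval -0.82 to 0.27), and its paralog HSP90AB1 by 0.27 (interval -0.02 to 0.57). Each of these intervals includes 0. The HSPA8 interval ends just short of the difference fitted for BAG3 (0.54), while those of HSP90AA1, on the lower side, and HSP90AB1, on the higher, reach past that size.

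In the endoplasmic reticulum, where DNAJC1 works, HSPA5 and HSP90B1 were not called between the regions. HSPA5, the HSP70 of that compartment also called BiP, differed by -0.04 (log2; limma adjusted p = 0.832). Its HSP90 counterpart HSP90B1 read 90.98, 94.22, 84.39 and 77.82 in central retina and 108.23, 123.63 and 109.28 in peripheral retina. The HSP90B1 libraries did not overlap, yet the limma adjusted p was 0.0573, just outside the threshold. Those of BAG2 (0.0538) and the shared name DNAJC2 (0.0518) were also just outside. Under quantile normalization HSP90B1 was called lower (adjusted p 0.0237).

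In mitochondria, HSPD1 and its lid HSPE1 differed by -0.11 and 0.08, and the mitochondrial HSP70 HSPA9 by 0.01, with no call. None of the 7 TRiC subunits, 5 prefoldin subunits or 6 genes with a small heat shock protein name passed limma's test, and 0 of these had an unadjusted p under 0.05. HSPB1, the HSP27 of stressed and muscle cells and a shared name, read 25.18, 23.49, 21.55 and 28.59 in central and 17.60, 21.22 and 18.39 in peripheral retina. These values did not overlap, but the limma adjusted p was 0.228.

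Genes outside the group that work with chaperones were taken from fixed lists, which were chosen with earlier results of these data known. Of 17 cochaperones and regulators, 5 were higher in central retina and 2 lower. STIP1, the adaptor that hands clients from HSP70 to HSP90, was higher by 0.51 on the log2 scale (99.0 ± 6.14 against 69.0 ± 2.54, SD, n = 4 and 3, limma adjusted p = 0.00611). Other HSP90 cochaperones that were higher were FKBP4 by 0.40, AHSA1 by 0.33 and CDC37, a shared name, by 0.57, all log2 differences with limma adjusted p of 0.0166, 0.0362 and 0.00909. The call for AHSA1 was lost under quantile normalization and under median centring.

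The heat shock transcription factor HSF4 was also higher, at 9.38 ± 1.83 against 2.77 ± 0.606 (SD, n = 4 and 3; log2 difference 1.46, limma adjusted p = 0.000938). The collagen chaperone SERPINH1 was lower (log2 difference -0.83, limma adjusted p = 0.00287). The small heat shock protein CRYAB was lower by more (log2 difference -1.73, limma adjusted p = 0.000111). Of 14 genes of folding in the endoplasmic reticulum 1, HYOU1, was higher by 0.40, and of 7 mitochondrial chaperones and proteases limma called 0 (1 higher at an unadjusted p under 0.05). Of 7 photoreceptor and tubulin folding factors 1, RP2, was lower (log2 difference -0.63), and of 18 proteasome subunits 3, PSMC1, PSMC3 and PSMC4, were higher by 0.43 to 0.54. The calls for HYOU1 and PSMC1 were lost under quantile normalization. These counts stand against the shares of all tested genes called in this comparison, 12.5% and 8.76%.

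Whole retina and whole eye did not differ in any chaperone gene by the limma test with adjustment over all genes: 0 of 72 were higher and 0 lower, where 0.168% and 2.1% of all tested genes were called (2.27% in either direction). At an unadjusted p under 0.05, HSPB6 was on the higher side in whole retina and HSPB2 and BAG1 on the lower. The median difference was -0.14 on the log2 scale, against -0.01 over all tested genes. The libraries did not overlap for 4 genes on the higher side in whole retina and 18 on the lower, where 14.0% and 17.6% of all tested genes showed this.

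HSPB2, a small heat shock protein of muscle, read 6.66 and 4.89 in the whole eyes and 2.38 and 3.79 in the whole retinas. Its log2 difference of -0.74 had an interval from -1.17 to -0.31 and a limma adjusted p of 0.108. Without whole retina replicate 2 the adjusted p of HSPB2 was 0.00884, the single library of that group then being assumed to vary like the others. With 2 libraries on each side, a simulation of this comparison recovered 55% of 2-fold and 11% of 1.5-fold changes.

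Before the regions are compared with the whole retina, the libraries labelled whole retina need a description. Their 4 smooth muscle markers summed to 1344 and 1619, against 678 to 1339 in whole eye, 15.2 to 22.4 for central and 11.9 to 19.5 for peripheral retina. Markers of fibrous stroma summed to 370 and 389 in whole retina and to at most 18.4 in the regions, with KERA at 0 in every central library. Pigment epithelium markers summed to 2279 and 2440, against 243 to 347 for central and 657 to 963 for peripheral retina. Lens markers summed to 427 and 601, against 3.44 to 9.02 in the regions, with MIP and LIM2 at 0 in central retina. The libraries labelled whole retina therefore carried levels of smooth muscle, stroma and lens markers that the regional libraries nearly lacked. Pigment epithelium markers were lower in the regions but not nearly absent. The part of these tissues in the comparison that follows was not tested.

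HSPB1 and HSPB8, both small heat shock proteins, had the largest fitted differences of the group between the regions and the libraries labelled whole retina. They were each about 6.5-fold lower in the regions, HSPB2, HSPB6, BAG3 and HSPE1 were also lower, and the synaptic J-domain protein DNAJC5 was 1.87-fold higher. In all, 6 of 72 genes (8.33%) were higher in the regions and 23 (31.9%) lower, where 15.8% and 28.4% of all tested genes were called (44.2% in either direction). The comparison sets the mean of the central and peripheral groups against whole retina.

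This split rests on the scaling. With each library centred on its median, 11 genes were higher and 12 lower, and with quantile normalization 14 and 12. Of all tested genes, 26.4% were then higher and 21.6% lower with median centring, and 31.7% and 19.8% with quantile normalization, as the median difference of all genes moved from -0.07 to 0.11 and 0.15. The 12 lower genes under each scaling were among the 23. Without whole retina replicate 2, 13 genes were lower. The libraries did not overlap for 6 genes higher in the regions and 24 lower, beside 13.9% and 27.9% of all tested genes.

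HSPB1 read 117.76 and 181.08 in whole retina and 239.92 and 137.43 in whole eye. Its 7 regional values lay between 17.60 and 28.59, below all 4 whole-tissue libraries. The fitted difference was -2.70 (SE 0.21, limma adjusted p = 1.8e-06). HSPB1 is a shared name, but its partner HSPB11 never exceeded 13.12. HSPB11 is known as a subunit of intraflagellar transport despite its name, and its own difference was 0.15 on the log2 scale (limma adjusted p = 0.649).

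HSPB8, the partner of BAG3, read 66.54 and 79.26 in whole retina and 73.43 and 72.34 in whole eye, against 7.25 to 15.60 in the 7 regional libraries. BAG3 followed the same order, with 21.32 and 23.63 in whole retina against 5.71 to 13.28 in the regions. The log2 differences were -2.71 (SE 0.27, limma adjusted p = 1.36e-05) for HSPB8 and -1.29 (SE 0.16, limma adjusted p = 6.06e-05) for BAG3. For neither gene did any regional library reach a whole-tissue library.

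HSPB6, known from smooth and cardiac muscle, read 70.45 and 102.04 in whole retina and 22.44 to 39.74 in the regions, 2.72-fold apart (limma adjusted p = 0.00031). HSPB2 read at most 0.61 in any regional library. HSPB3, another small heat shock protein of muscle, overlapped between the groups and was not called (log2 difference -0.37, limma adjusted p = 0.441). Thus 4 of the 6 genes with a small heat shock protein name were lower in the regions, and 4 were lower under quantile normalization and under median centring as well. All 4 smooth muscle markers were lower in the regions, while of 6 skeletal muscle markers 2 were lower and 1 higher. The part of muscle in these differences was not tested.

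**Figure D3:**
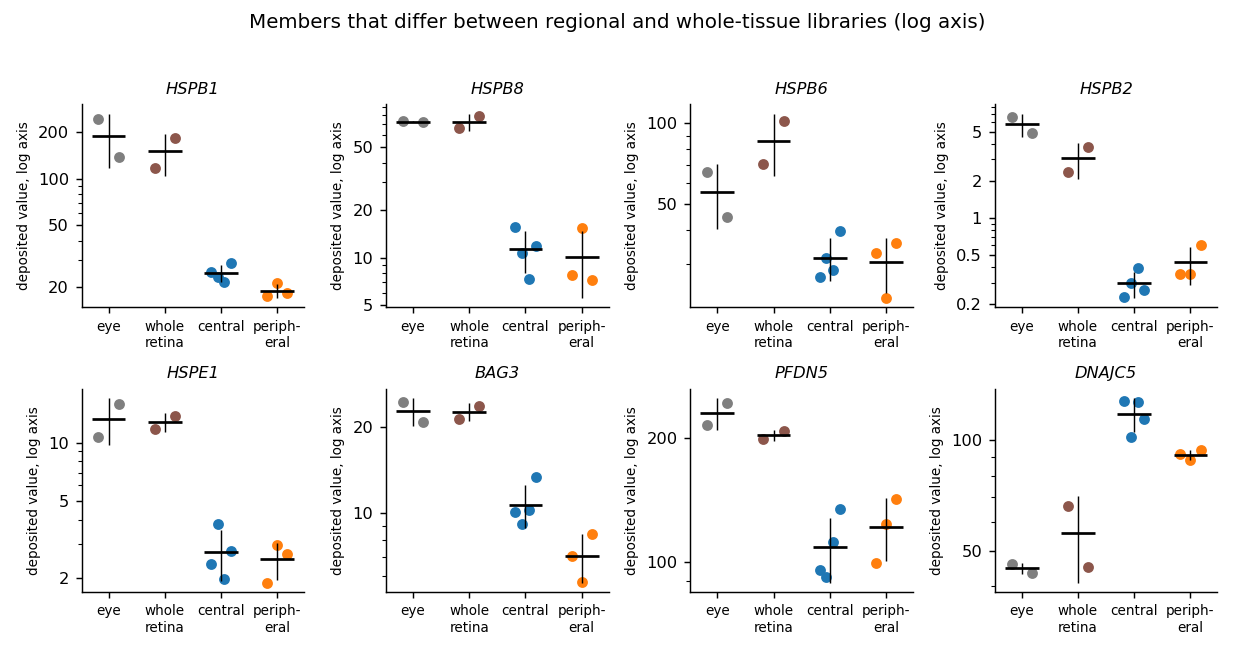
Deposited values on a log axis, one point per library, of 8 chaperone genes that differ between the regional libraries and the libraries labelled whole retina. The horizontal bars are group means and the vertical bars the SD; HSPB1 lies at 117.76 to 239.92 in the whole-tissue libraries and at 17.60 to 28.59 in the regions, and only DNAJC5 runs the other way.

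Both genes of the mitochondrial chaperonin were lower in the regions. HSPE1, its lid, read 11.74 and 13.75 in whole retina and 1.89 to 3.81 in the regions, 3.85-fold apart (log2 difference -1.95, SE 0.20, limma adjusted p = 1.67e-05). HSPD1, the barrel that HSPE1 closes, read 56.92 and 69.05 against 38.64 to 50.37, 1.40-fold apart (limma adjusted p = 0.0219). The call for HSPD1 was lost under both scalings (adjusted p 0.138 and 0.115), and HSPE1 kept its call under every alternative. The difference between the genes was not tested. Of the 7 other mitochondrial chaperones and proteases listed, limma called 0, and 0 had an unadjusted p under 0.05, but 1 was higher under either scaling.

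Several chaperones of the endoplasmic reticulum were lower in the regions. HSPA5 read 121.92 and 127.48 in whole retina and 58.27 to 82.83 in the regions (log2 difference -0.74, SE 0.13, limma adjusted p = 0.000855). HSP90B1 (-0.57) and the J-domain proteins DNAJC3 (-0.51) and DNAJC10 (-0.52), both shared names, were lower by less. DNAJB11 (log2 difference -0.01), DNAJB9 (-0.27) and HSPA13 (-0.03), which also work in this compartment, were not called (limma adjusted p 0.973, 0.186 and 0.913). Of the 14 listed genes of folding in this compartment, 9 were lower and 0 higher, among them PDIA3, XBP1 and CALR, and 8 or 7 were lower and 1 higher under quantile normalization or median centring. The shares of all tested genes called lower were 28.4%, 19.8% and 21.6% in these fits, and those called higher 15.8%, 31.7% and 26.4%; they are the background for every count of this comparison. HSPA5 kept its call under every alternative, while HSP90B1, DNAJC3 and DNAJC10 did not.

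Among the chaperones that fold actin and tubulin, 4 TRiC subunits and 1 prefoldin subunit were called. CCT2, CCT5, CCT7 and CCT8, subunits of TRiC, were lower in the regions by 1.33-fold to 1.42-fold. Under median centring 1 TRiC subunit and under quantile normalization 2 were lower, and CCT2 kept its call throughout (limma adjusted p at most 0.0312). PFDN5, a subunit of prefoldin, lay at 199.41 and 208.02 in whole retina and 91.92 to 142.13 in the regions, 1.79-fold apart (limma adjusted p = 0.00177). The other 4 prefoldin subunits were not called in the main fit. Of these, 1 was higher under median centring and 2 under quantile normalization. HSP90AB1 was lower by 0.50 on the log2 scale, a call lost under both scalings, and of 18 proteasome subunits 10 were lower, but 5 and 3 under quantile normalization and median centring.

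Other calls on the lower side were DNAJC1 (log2 difference -0.68) and DNAJC19 (-0.61), both shared names, DNAJB5 (-0.40), DNAJB6 (-0.41), HSPA9 (-0.33) and HSPBAP1 (-0.50). DNAJC1 alone of these kept its call under every alternative. DNAJC19 belongs to the motor that pulls proteins into mitochondria, and DNAJB6 keeps aggregation-prone proteins soluble.

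The genes higher in the regions included J-domain proteins of neurons. The J-domain class as a whole split into 5 higher and 6 lower genes, and into 7 and 2 under median centring and 8 and 2 under quantile normalization. As shares, 15.6% of the class were higher and 18.8% lower, beside 15.8% and 28.4% of all tested genes. DNAJC5, the cysteine string protein of synaptic vesicles, read 66.07 and 45.23 in whole retina, 127.86, 101.87, 126.96 and 113.90 in central and 91.50, 88.18 and 93.88 in peripheral retina. No regional library came down to a whole-tissue library, and the log2 difference was 0.91 (SE 0.14, limma adjusted p = 0.000364). DNAJC6, the auxilin that starts the uncoating of clathrin vesicles, read 21.53 and 21.89 against 27.34 to 42.28 (log2 difference 0.55, SE 0.13, limma adjusted p = 0.00597). Both kept their calls under every alternative.

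DNAJB2, a J-domain protein enriched in neurons, was 1.28-fold higher in the regions, and 2 shared names, DNAJC11 and DNAJC27, by 1.30-fold and 1.53-fold. The call for DNAJB2 was lost in 5 alternatives, among them the fit without whole retina replicate 2 (adjusted p 0.239), without which DNAJC11 (0.115) and DNAJC27 (0.0761) lost theirs as well. HSPA12A was called higher on the mean of the regions (1.53-fold), which came from central retina: against whole retina its log2 difference was 1.20 in central retina and 0.03 in peripheral retina (limma adjusted p 2.71e-05 and 0.892). Both contrasts share the whole retina libraries.

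Of the 17 cochaperones and regulators outside the group, 3 were higher in the regions and 3 lower. HSF1, the transcription factor that drives the heat shock response, was higher by 0.69 on the log2 scale (limma adjusted p = 0.000933), as were CDC37, a shared name, by 0.47 and FKBP4 by 0.28. SERPINH1, CRYAB and HSBP1, a binding partner of HSF1, were lower. AIPL1, the chaperone of the photoreceptor phosphodiesterase and a shared name, was the 1 of 7 photoreceptor and tubulin folding factors called, higher by 0.74 (limma adjusted p = 0.0422), and 5 of 7 were higher under either scaling.

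Chaperone levels also varied among libraries of the same region. For 23 of the 72 genes (31.9%), central replicate 3 was the lowest central library and peripheral replicate 3 the lowest peripheral one, where 9.75% of all 11933 tested genes showed this. Over all tested genes, the deviations of these libraries from their group means correlated at 0.36. The pattern was noticed in the data and is a description without a test. It included HSPA8, HSP90AA1, HSP90AB1, HSPH1, HSPA1B, DNAJA1, HSPD1, HSPA5 and HSPA9.

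HSP90AA1 read 787.85, 782.48, 494.42 and 570.13 in central retina and 855.20, 1033.41 and 536.60 in peripheral retina. HSPH1, an HSP110 protein induced by heat shock, read 36.51, 37.84, 25.82 and 27.43 in central and 35.66, 45.13 and 27.37 in peripheral retina. Both fell into a high set, replicates 1 and 2 of each region, and a low set, central replicates 3 and 4 and peripheral replicate 3. Such a split, low in those 3 libraries, was seen for 19 of the 72 genes (26.4%) and for 12.6% of all tested genes, and the opposite split for 10 genes (13.9%), BAG3 and DNAJB5 among them, and for 9.44% of all. Immediate early genes respond to tissue handling. Their sum was 102.6, 58.1, 65.4 and 79.9 in central and 47.4, 48.5 and 55.3 in peripheral retina. The part of tissue handling in these splits was not tested. The labels give no date or batch.

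**Figure D4:**
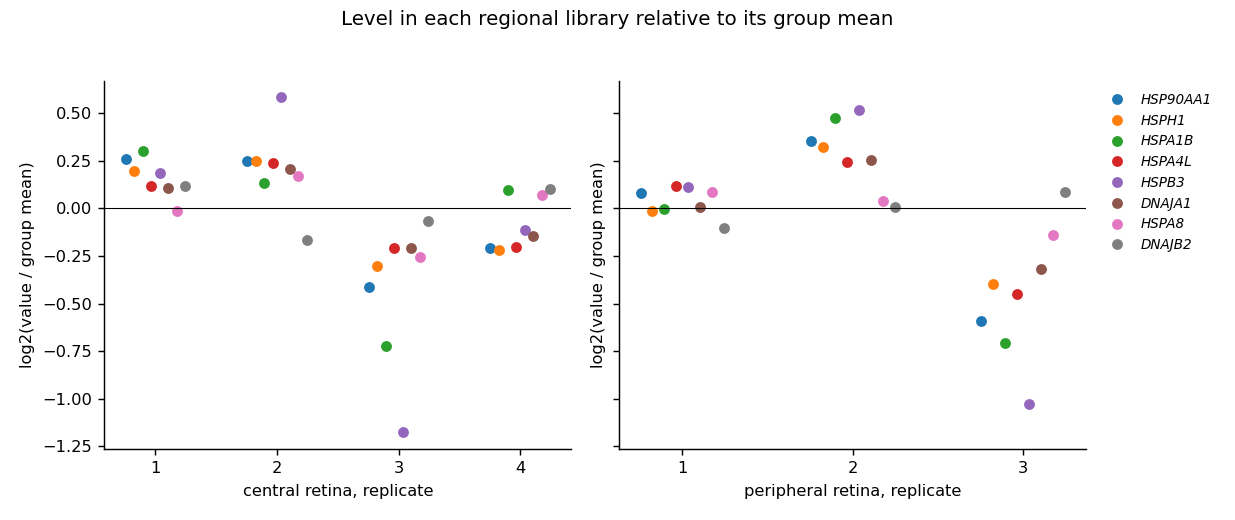
Log2 ratio of the deposited value to the mean of its own group, for 8 chaperone genes (colours) in the 4 central and 3 peripheral libraries. Central replicate 3 and peripheral replicate 3 are the lowest of their groups for 7 of the genes, as for HSP90AA1 at 494.42 and 536.60, and not for DNAJB2. The genes were picked for display, and in the whole group 23 of 72 showed this.

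Values of some shared names appeared to move between names. TCP1, the first subunit of TRiC, read 1.35 and 3.02 in the whole eyes and 1.90 in whole retina replicate 1, but 53.27 in whole retina replicate 2 and 34.28 to 57.19 in the regions. TCP11L1, a gene of another function whose name has the same start, read 71.04, 77.11 and 58.94 in the first 3 of these libraries, 5.51 in whole retina replicate 2 and 8.98 to 13.60 in the regions. The 2 names thus trade high values from library to library. No call for TCP1 was made in the comparisons of the 4 groups, and the call that appeared against whole eye without whole retina replicate 1 (limma adjusted p = 3.94e-05) rests on whole retina replicate 2. Without that library, TCP1 was called higher in the regions than in whole retina (limma adjusted p = 3.36e-06), and this call rests on the low value of whole retina replicate 1.

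Among names that start with DNAJC2, a like apparent exchange was clearest for 3 genes. DNAJC22 read 13.86, 16.79 and 10.68 in peripheral retina but 0.38, 12.72, 0.21 and 0.34 in central retina. In the 3 central libraries where DNAJC22 was low, DNAJC2 read 8.35, 1.56 and 1.44, against at most 0.40 in all other libraries, and DNAJC24 read 4.67, 19.06 and 15.07. DNAJC25 also read 11.62 in central replicate 3, against 4.58 to 7.67 in all other libraries. The sum of the 6 names lay between 36.5 and 48.2 in central and between 34.8 and 45.1 in peripheral retina, so the groups overlapped. The limma call for DNAJC22 (log2 difference -2.63, adjusted p = 0.022) is therefore a call on a name.

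**Figure D5:**
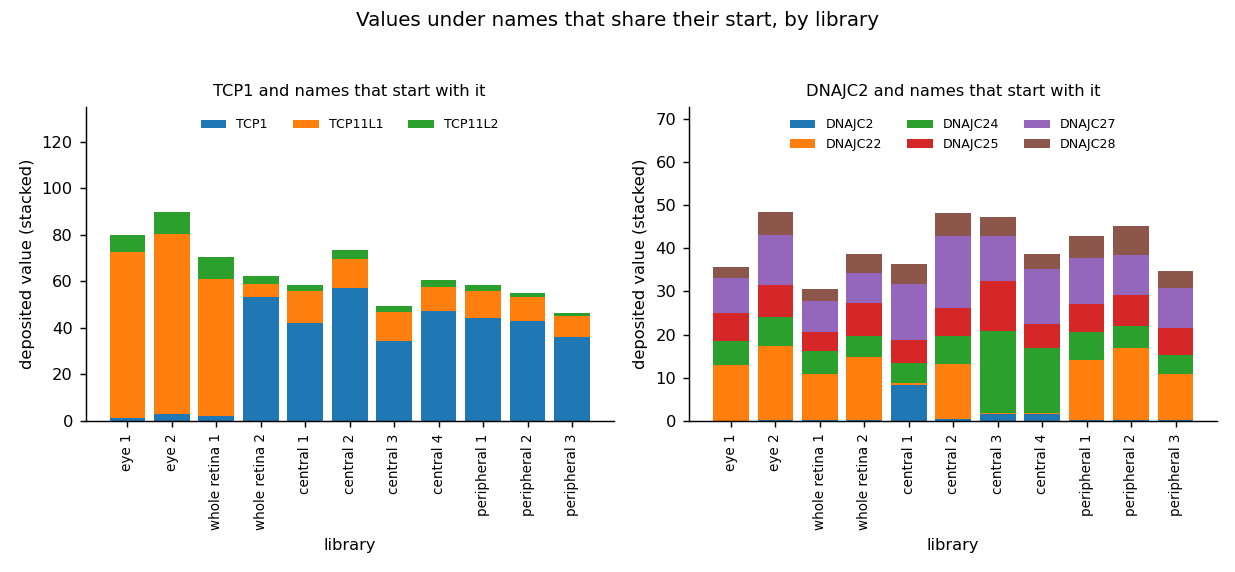
Deposited values by library for gene names that share a start, as stacked bars: TCP1, TCP11L1 and TCP11L2 on the left and the 6 DNAJC2 names on the right. The total height changes less from library to library than its division among the names, as where TCP1 reads 1.90 in whole retina replicate 1 and 53.27 in replicate 2.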

How the data were processed

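Each of the 11 deposited tables gives 1 normalized signal value per gene for 1 library, per the file headers. GSNAP and HTSeq are named, without versions, in the submitters' processing notes. For the deposited signal the scaling, genome build and annotation were not given in the sources used here, and neither coordinates nor sequences are printed. Of 13083 rows, 26 marked ND, 1 more without a number and 61 exact duplicates were dropped. The 38 rows under repeated names were kept and not named singly.

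Values were tested as log2(value + 1) with limma 3.58.1 (R 4.3.3), in a linear model of 4 groups with a variance trend. Tests were two-sided over the 11933 genes whose mean reached 1 in some group, with Benjamini and Hochberg adjustment over all of them and a threshold of 0.05. All 72 chaperone genes passed that filter. Differences and folds are on the log2(value + 1) scale, which understates changes of low genes.

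The members, lists and comparisons were chosen with earlier results of these data known. Named genes are the largest calls per direction, a fixed set of well-known chaperones, and any class direction of 5 genes or fewer; single libraries, scalings and neighbouring names were added after values were seen. In deviations from group means, same-numbered central and peripheral libraries correlated at -0.14, -0.06 and 0.36. Central replicate 1 with peripheral replicate 2 also reached 0.36. The main fit used no pairing and treated the libraries as independent. Alternatives were another pseudocount, filters, 2 scalings, fits of other groups, no trend, a replicate block and each library left out. On simulated tables with 200 changed genes, the test recovered 86% of 2-fold and 39% of 1.5-fold changes between central and peripheral retina, and 75% and 24% between the regions and whole retina. In the data the same test called 21.3% and 44.2% of all tested genes, a larger share than was changed in the simulation. The recovery rates may therefore differ from those in the data.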

Additional observations from a re-analysis of the deposited data

Results flagged for a closer look

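Central retina replicate 2 stood apart for DNAJC22, at 12.72 where the other 3 central libraries read 0.38, 0.21 and 0.34. On the log2(value + 1) scale, the gap to the nearest of these was 94.6% of the range of the group. All 72 genes were screened in central retina, and only DNAJC22 was flagged. Chance alone flags about 1 in 20 groups by this criterion. DNAJC22 is one of the 6 names that start with DNAJC2, whose sum in central replicate 2 was 48.2, against 36.5, 47.2 and 38.6 in the other central libraries.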

How the results depend on the processing

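Between central and peripheral retina, 4 genes were higher and 4 lower. Without shared names 1 was lower (DNAJC9), and with any library left out the counts ran from 1 to 6 and from 2 to 6. HSPA12A and DNAJC1 kept their calls under every alternative, and the other 6 lost theirs in at least 1. Between whole retina and whole eye, the counts of 0 ran from 0 to 1 in each direction with a library left out. Against whole retina, 6 genes were higher and 23 lower. Quantile normalization gave 14 and 12, median centring 11 and 12, and peripheral retina alone, chosen after seeing the data, 2 and 15. With a library left out the counts ran from 5 to 7 and from 13 to 25. Of these 29 calls, 12 held under every alternative. No named gene reversed direction while called.

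Replicate numbers gave correlations of deviations of -0.14, -0.06 and 0.36 for central and peripheral libraries of the same number, and 1 of 3 numbers matched best with its own. Central replicate 1 with peripheral replicate 2 gave 0.36, and central replicate 2 with peripheral replicate 1 gave 0.35. A pairing under other numbers was not tested, and the replicate block used the numbers as given. With a replicate block the counts were 4 higher and 4 lower between the regions, 0 and 0 between whole retina and whole eye, and 8 and 20 against whole retina. Between the regions the block lost HSPA4 (adjusted p 0.0743) and gained BAG2 (0.048). In a block fit of the compared regions alone, added after seeing the data, 2 were higher and 3 lower, with BAG3 (0.0623), DNAJB5 (0.0638) and DNAJC9 (0.0659) lost. Depth was estimated only relative to whole eye replicate 2, and not for every library. Groups of 2 libraries limit both comparisons with whole retina.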
